A study of Mus musculus with 6 samples.

Results

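The mouse genes named Zfp followed by a number encode zinc finger proteins, and 290 of them had a mean level of 1 TPM or more across all 6 libraries of the series. They were taken from 373 such symbols in the deposited gene table (Zfp36, an RNA-binding protein with another kind of finger, was left out) and are 290 of 12862 genes tested. The members were chosen by symbol and by mean TPM over both groups, and the family was picked with earlier results of these data known, so the counts over its members describe these libraries and are no test of the family. The series compared Ba/F3 cells, a mouse haematopoietic line widely used to study oncogenic kinases, in 2 groups of 3 libraries each. One group was labelled wild type with an empty vector (EV). The other was labelled as overexpressing TPR-FGFR1, a fusion of a nuclear pore protein with the kinase of a fibroblast growth factor receptor. Lentiviral infection and 6 days in puromycin at 5 µg/ml are given for the fusion cells. Whether the empty vector cells went through the same selection is not given in the sources used here. Interleukin-3 in the medium, the species of the fusion sequence, whether each line is 1 clone, and separate cultures for the replicates are also not given. Each p-value here is set against the spread among the 6 libraries alone, which may be technical.

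Values are TPM, which are scaled for transcript length and for each library's total. They keep no read numbers, so sequencing depth is unknown and counting intervals cannot be given. Fgfr1 stood at 0.02, 0.04 and 0.05 TPM in empty vector replicates 1 to 3 and at 0.70, 0.58 and 1.26 TPM in the fusion libraries. The cells are labelled as B lymphocytes, but 10 of 12 B-lineage markers were under 1 TPM, among them Pax5, Ebf1 and Ms4a1. Among the others, Cd79b measured 6.74, 7.14 and 6.39 TPM with the empty vector and 7.04, 4.72 and 4.06 TPM with the fusion. The summed B-lineage markers, nearly all from the pan-leukocyte gene Ptprc, ran from 173 to 183 TPM with the empty vector and from 187 to 222 TPM with the fusion. Of 19 markers of other blood cells, 11 were under 1 TPM, among them Mpo, Cd3e, Csf1r and Kit, and the list summed to 305 to 374 TPM with the empty vector and 190 to 389 TPM with the fusion, where Hba-a1 alone ran from 39.51 to 177.32 TPM. Of this list the platelet-lineage genes Pf4 and Itga2b and the myeloid gene Lyz2 fell with the fusion, where 10.04% of all tested genes fell. Their log2 fold changes were −0.77, −0.54 and −0.59 (limma adjusted p of 0.0206, 0.0446 and 0.0329). Itga2b was not called after the GC and length correction described below (−0.15). The myeloid genes Cd68 and Prtn3 did not fall with Lyz2: they were not called, at 0.13 and −0.05, and stood at 0.25 and 0.43 after correction. The part of these markers in the results below was not tested. TPR-FGFR1 replicate 3 stood apart from its group: on the log2(TPM + 1) scale it correlated across genes with the empty vector libraries at 0.966 and with the other fusion libraries at 0.9635 and 0.962. Counts over all members and over KRAB members are given with and without it, and most other results only with it included.

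Most Zfp proteins carry fingers of the C2H2 type, in which a pair of cysteines and a pair of histidines hold a zinc ion and each finger reads a few bases of DNA. A large class also has a KRAB box at the amino end. The KRAB box binds TRIM28, which brings in the histone methyltransferase SETDB1 and HP1 proteins and so silences chromatin, above all at retroelements and imprinted loci. KRAB zinc finger genes are numerous, quickly evolving and lie side by side in clusters. Members without the box include activators of transcription and proteins that act on RNA, ribosomes or the spindle.

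A coding sequence was available for 288 members. A KRAB box was found in 175 of them and none in 113, while Zfp125 and Zfp640 had no coding sequence. The search used the longest coding sequence of each gene. Members without the box are below those in which this search found none, and boxes that it missed were not looked for. The number of C2H2 fingers ran from 0 in 6 members to 37 in Zfp142. Levels were modest: the median member mean was 9.89 TPM, against 16.1 TPM over all tested genes, and 4 members were above 100 TPM. Of the 83 Zfp symbols under the minimum, 29 were listed at 0 in every library. The members just inside the minimum were Zfp503, Zfp93 and Zfp341, with means of 1.00, 1.00 and 1.01 TPM, and the symbols just outside it were Zfp418, Zfp78 and Zfp689, with 0.895, 0.875 and 0.852 TPM. Most members passed in both groups. The mean of 285 members reached 1 TPM in each group, 3 were under it with the empty vector alone and 2 with the fusion alone.

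In the fusion cells, KRAB zinc finger genes were mostly somewhat higher and the other Zfp genes were spread around no change. In both classes the fold changes were lower at high transcript GC content, as given below. Over the 290 members, 39 rose (13.4%) and 13 fell (4.48%) at a limma adjusted p under 0.05, where 10.2% of all tested genes rose and 10.04% fell (20.2% in all). Fold changes are differences in log2(TPM + 1), which understate the change of low genes. In bulk RNA a higher level in every cell and a larger share of cells with the transcript cannot be told apart. The median member log2 fold change was 0.15, and 191 of 290 members were above 0 (65.9%, against 52.0% of all tested genes). Of the KRAB members, 31 of 175 rose (17.7%) and 2 fell (1.14%), with a median of 0.24 and 143 above 0 (81.7%). Of the members without a KRAB box, 7 of 113 rose (6.19%) and 11 fell (9.73%), with a median of −0.05. The remaining riser, Zfp640, had no coding sequence. Groups did not overlap in 88 members that were higher and 36 that were lower with the fusion, against 22.6% and 20.8% of all tested genes (43.4% in all). All 52 called members were among them, and the other 238 were not called.

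**Figure D1:**
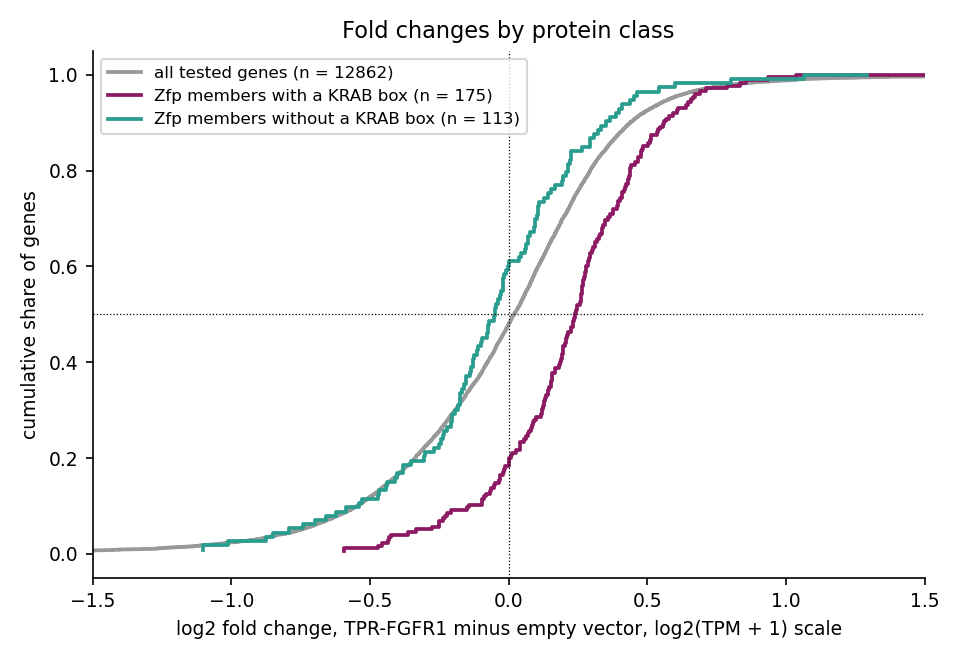
Cumulative share of genes (y axis) by log2 fold change on the log2(TPM + 1) scale (x axis), for all 12862 tested genes, 175 Zfp members with a KRAB box and 113 without. The KRAB curve lies to the right, with a median of 0.24, against −0.05 for the other members and 0.02 for all tested genes; genes beyond the axis limits are not drawn.

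These counts depended on every library. Without TPR-FGFR1 replicate 3 the members called numbered 126 higher and 33 lower of 286, and the KRAB members 97 higher and 6 lower of 172, while 26.3% of all tested genes were called higher and 23.4% lower (49.7% in all). Without TPR-FGFR1 replicate 2, 9 members were called higher and 1 lower, where 3.32% and 3.45% of all tested genes were. Without TPR-FGFR1 replicate 1, 2 were called higher and 0 lower (1.07% and 1.33% of all tested genes). Without empty vector replicate 1, 2 or 3, the numbers called higher were 5, 3 and 3, with 0 lower each time. Of all tested genes 1.5%, 0.864% and 1.15% were then called higher and 1.65%, 0.848% and 1.04% lower. The medians moved less: over all 21 alternative settings the KRAB median stayed between 0.09 and 0.36, and that of members without the box between −0.08 and 0.00.

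Transcript GC content moved with the fold changes in the whole table, and the members differ in it. The median GC content of the longest transcript was 40.4% for KRAB members, 49.7% for members without a KRAB box and 48.8% for all tested genes. Members that rose had a median of 40.3% (33.2% to 47.1%), and those that fell 55.5% (41.7% to 63.5%). Among all tested genes of the lowest of 5 GC bins (28.1% to 43.1%), 16.0% rose and 2.71% fell, with a median log2 fold change of 0.19. In that bin 27 of 116 KRAB members rose (23.3%) and 0 fell, with a median of 0.29, and 4 of 24 members without the box rose. In the next bin 4 of 32 KRAB members rose (12.5%), where 16.0% of all tested genes rose. The KRAB median in that bin was 0.23, against 0.14 for all tested genes. In the remaining bins, in order of GC content, 0 of 12, 0 of 11 and 0 of 4 KRAB members rose and 1, 0 and 1 fell. Of all tested genes there, 11.8%, 5.90% and 1.40% rose and 8.73%, 13.2% and 21.8% fell. The KRAB medians in those bins were −0.12, −0.06 and −0.43, against 0.05, −0.10 and −0.35 for all tested genes. Members without the box had medians of 0.13, 0.13, 0.02, −0.17 and −0.23 from the lowest bin to the highest. In the highest bin (54.7% to 71.4%), 1.40% of all tested genes rose and 21.8% fell, and of 33 members without the box 6 fell and 0 rose.

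**Figure D2:**
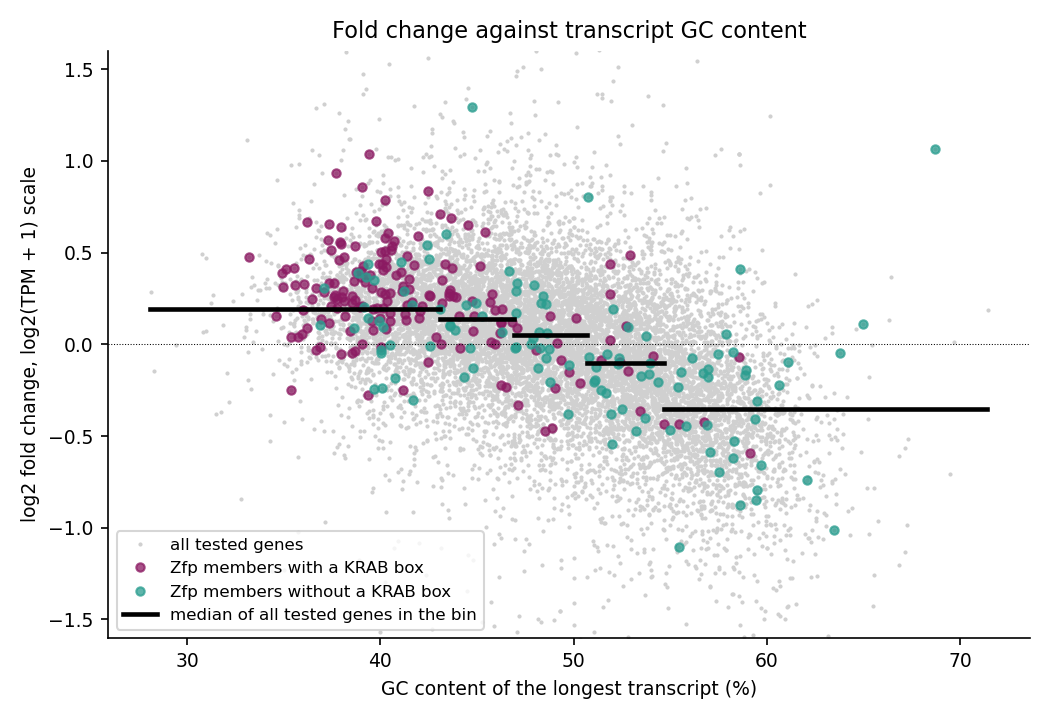
Log2 fold change on the log2(TPM + 1) scale (y axis) against GC content of the longest transcript in percent (x axis), with 1 point per gene and black bars for the median of all tested genes in each of 5 GC bins. The bin medians go from 0.19 at low GC content to −0.35 at high GC content, and KRAB members crowd at the low end; genes beyond 1.6 on the y axis are not drawn.

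A smooth trend over GC content and transcript length was removed from each library, and the comparison was run again. With this correction 52 members were higher and 27 lower (16.4% and 15.4% of all tested genes, 31.8% in all), and the median was 0.05. KRAB members then numbered 40 higher (22.9%) and 10 lower (5.71%), with a median of 0.09, and members without the box 12 higher and 17 lower, with a median of −0.03. Of the 39 members that rose as deposited, 36 were still called higher, and of the 13 that fell, 8 were still called lower. A further 16 were called higher and 19 lower with the correction alone. Fusion replicate 3 differed from the other 2 in the same respect. The KRAB median, as a difference from the empty vector mean, was 0.31 in fusion replicate 1, 0.37 in replicate 2 and 0.05 in replicate 3. In all tested genes of the lowest GC bin the same quantity was 0.28, 0.30 and −0.00. After correction the KRAB medians were 0.07, 0.11 and 0.07, and those of the empty vector libraries lay between −0.01 and 0.01. Each empty vector library is part of the mean it is compared with. This narrows their range, so it is no measure of the spread between libraries. The part of GC content in the deposited differences cannot be told apart from that of the fusion by these libraries.

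**Figure D3:**
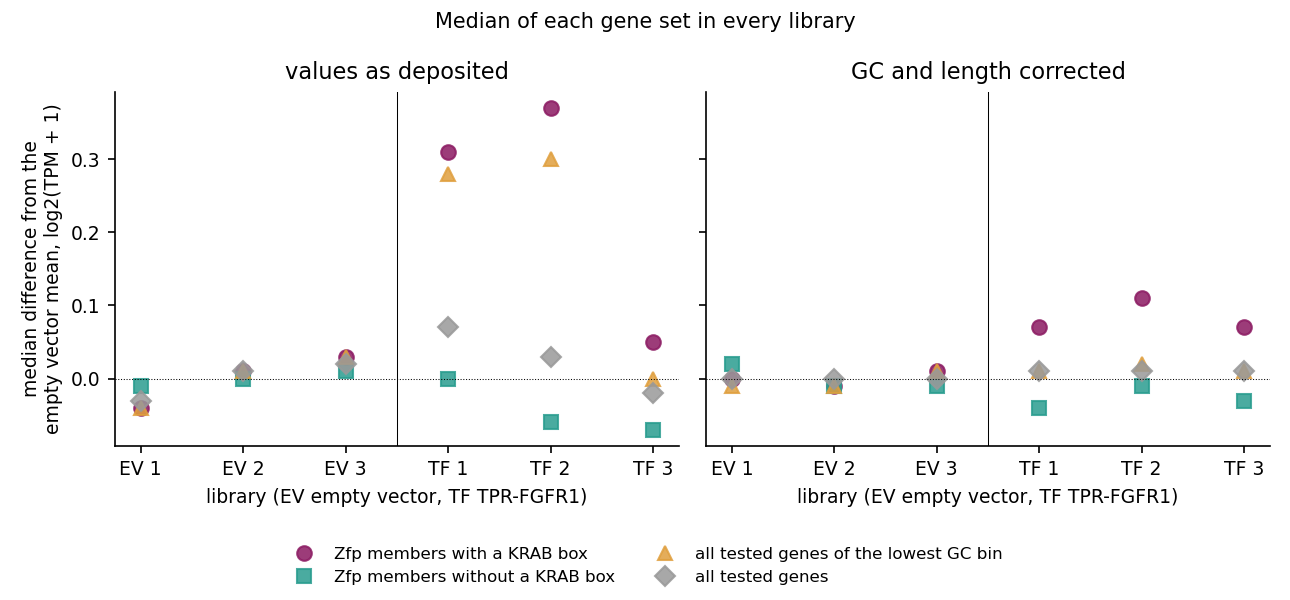
Median difference from the empty vector mean on the log2(TPM + 1) scale (y axis) in each library (x axis), for 4 gene sets, as deposited (left) and after correction (right). As deposited, KRAB members stand at 0.31, 0.37 and 0.05 in the fusion libraries, close to the genes of the lowest GC bin; after correction they stand at 0.07, 0.11 and 0.07.

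Zfp143 showed the largest rise among called members and lies outside the KRAB class. Its product is an activator with 7 C2H2 fingers that binds the promoters of small nuclear RNA genes and many protein-coding genes. Zfp143 (ENSMUSG00000061079) measured 6.18, 7.53 and 7.25 TPM in empty vector replicates 1 to 3 and 19.68, 19.88 and 16.14 TPM in fusion replicates 1 to 3. Every fusion library was far above every empty vector library, with replicate 3 the lowest of its group. The mean went from 6.99 ± 0.712 to 18.6 ± 2.10 TPM (SD, n = 3 per group), a log2 fold change of 1.29 (SE 0.118, limma adjusted p = 0.00587). The Zfp143 call held in all 21 alternative settings, with limma adjusted p between 9.69e-06 and 0.0397, and with the GC and length correction the log2 fold change was 1.17.

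The core of the site that Zfp143 is known to bind, written here as CTACANNTC, was searched on both strands of RefSeq promoter windows (GRCm38.p6, 250 bases before to 50 after the annotated start), which matched 242 members. It was present in 54 of these (22.3%): in 40 of 151 KRAB members (26.5%) and 14 of 90 members without the box (15.6%), against 639 of 8504 tested genes that are no member (7.51%) and 4.91% of all 27025 symbols of the promoter table. The match in 59-base windows, with 25 bases on each side of the first match, is shown for the 4 members with it that rose and the 1 that fell, so that the shared letters can be seen. Matched letters are in capitals, and each sequence is on its gene's strand:
Zfp933: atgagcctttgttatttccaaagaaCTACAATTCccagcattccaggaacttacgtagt
Zfp606: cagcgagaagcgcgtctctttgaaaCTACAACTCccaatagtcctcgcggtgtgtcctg
Zfp420: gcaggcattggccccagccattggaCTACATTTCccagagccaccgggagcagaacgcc
Zfp712: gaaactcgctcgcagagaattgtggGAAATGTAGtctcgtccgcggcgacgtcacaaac
Zfp1: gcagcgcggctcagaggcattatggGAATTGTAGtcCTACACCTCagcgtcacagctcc

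They lie at chr4:147848416-147848474 on the minus strand for Zfp933, chr7:12478257-12478315 on the plus strand for Zfp606 and chr7:29859896-29859954 on the plus strand for Zfp420. The window of Zfp712 is chr13:67061191-67061249 on the minus strand, with the match in the opposite orientation, and that of Zfp1 is chr8:111643394-111643452 on the plus strand, with a match in each orientation. Of the 40 KRAB members with a match, 3 rose and 1 fell, with a median log2 fold change of 0.25, and of the 111 without one 23 rose and 1 fell, with a median of 0.26. Among tested genes that are no member, 78 of 639 with a match rose (12.2%) and 64 fell, and of 7865 without one 821 rose (10.4%) and 916 fell. The difference between these sets was not tested. Other motifs searched on both strands, none of which holds another, were CCGGAAGT (bound by ETS factors, in 12.4% of members and 4.31% of all symbols), ATGGCGGC (the core of the YY1 site, 7.02% and 2.60%), CGCATGCG (the core of the NRF1 site, 4.55% and 2.07%) and TATAAA (6.61% and 15.7%). Tested genes that are no member held them in 10.3%, 6.19%, 4.79% and 8.21%. A match is a description of the letters and not evidence of binding.

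Among called KRAB members the largest rises were in Zfp53 and Zfp40, which share a cluster on chromosome 17. The KRAB member Zfp967 had a larger log2 fold change, 1.65, but was not called (limma adjusted p = 0.0538, 0.000396 to 0.167 over the alternatives). All 75-base windows of its longest transcript occur in other genes. Zfp967 measured 1.10, 0.55 and 3.58 TPM with the empty vector and 10.47, 8.16 and 3.39 TPM with the fusion, so fusion replicate 3 lay below empty vector replicate 3 and the groups overlapped. Zfp53 measured 32.19, 30.75 and 32.97 TPM with the empty vector and 73.41, 77.55 and 51.86 TPM with the fusion. Zfp40 measured 27.69, 32.25 and 31.57 TPM with the empty vector and 63.14, 64.61 and 50.57 TPM with the fusion. In both genes the groups were far apart and fusion replicate 3 was the lowest of its group. Zfp53 rose from 32.0 ± 1.13 to 67.6 ± 13.8 TPM (SD, n = 3), a log2 fold change of 1.04 (limma adjusted p = 0.0103, 9.69e-06 to 0.0542 over the alternatives). Zfp40 rose by a log2 fold change of 0.93 (limma adjusted p = 0.00772), and apart from Zfp143 it was the only member called in all 21 alternative settings (1.28e-05 to 0.0452). Zfp53 and Zfp40 each encode 16 fingers.

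The next 7 rises among called members were KRAB genes too. Zfp993 went from 3.16, 4.01 and 2.81 TPM to 6.20, 7.31 and 6.87 TPM. However, 75.4% of its 75-base transcript windows also occur in other genes, so reads may have been split among copies. Zfp811, Zfp933 and Zfp667 had log2 fold changes of 0.83, 0.79 and 0.71, at means between 2.61 and 8.42 TPM. Zfp983, at 24.97, 27.38 and 27.37 TPM with the empty vector, measured 46.50, 46.86 and 36.17 TPM with the fusion. Zfp976 and Zfp398 rose by 0.64 and 0.61 on the log2 scale. Zfp398 measured 13.01, 12.39 and 11.67 TPM in the fusion libraries against 7.51, 7.94 and 7.79 TPM. Over all 39 risers, fusion replicate 3 was the lowest library of its group in 36.

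**Figure D4:**
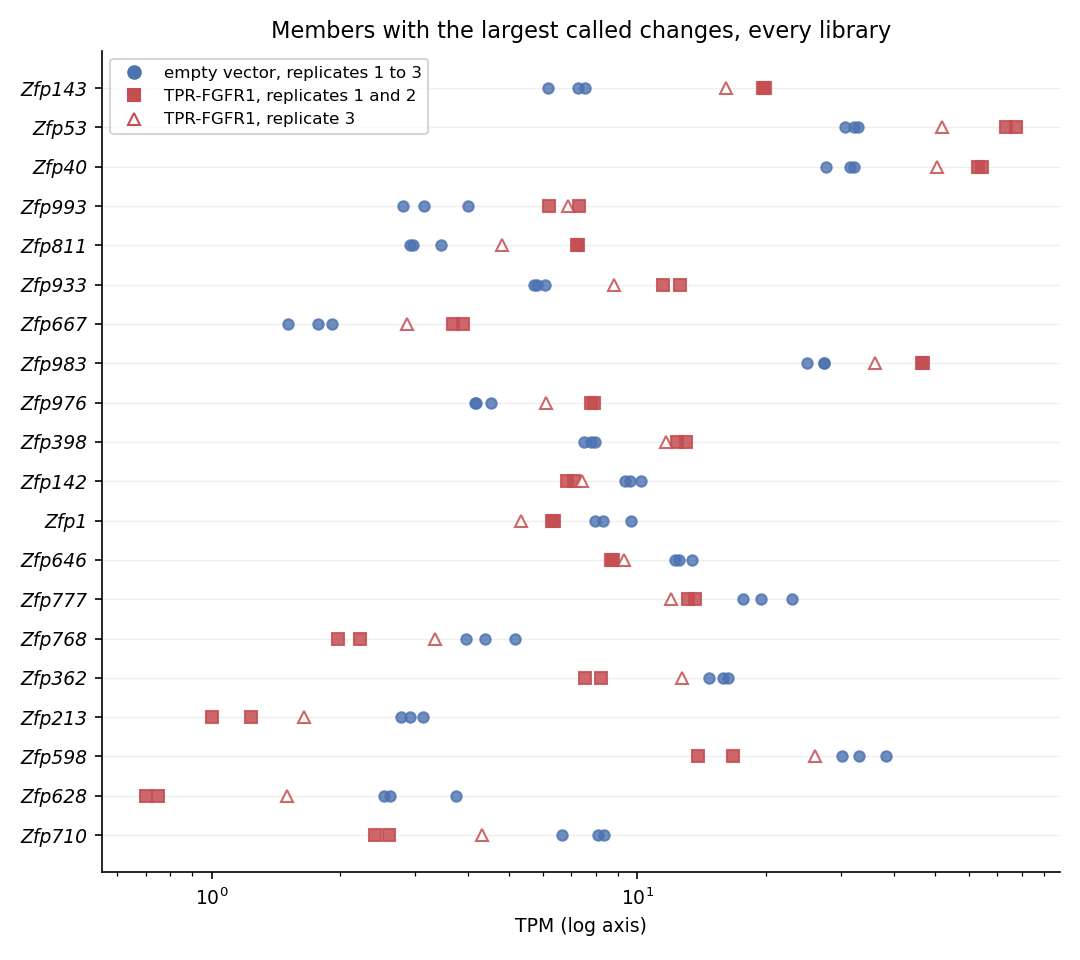
TPM on a log axis (x axis) in each library for the 10 members with the largest rises and the 10 with the largest falls among called members (y axis), with circles for empty vector, filled squares for TPR-FGFR1 replicates 1 and 2 and open triangles for replicate 3. The groups do not overlap in any of the 20 genes, and replicate 3 lies nearest to the empty vector in most of them, as in Zfp53 at 51.86 TPM.

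Of 12 genes listed as known KRAB silencers of retroelements, imprinted loci or developmental genes, 7 were members, of which 2 rose and 0 fell (median 0.34, against 10.2% of all tested genes that rose and 10.04% that fell). Zfp445, which guards imprinted loci together with Zfp57, was among the most abundant members, with 135.89, 145.71 and 152.37 TPM in the empty vector libraries and 209.10, 210.86 and 171.51 TPM in the fusion libraries. Zfp809, which recognises the primer binding site of murine leukaemia viruses, measured 77.96, 81.24 and 79.52 TPM with the empty vector and 118.41, 109.08 and 95.99 TPM with the fusion. In both genes each fusion library exceeded each empty vector library. The log2 fold changes were 0.44 for Zfp445 (limma adjusted p = 0.0303, 3.86e-05 to 0.114 over the alternatives) and 0.43 for Zfp809 (0.0245, 3.02e-05 to 0.0905), and 0.27 and 0.30 after correction. Zfp932, a repressor of endogenous retroviruses, Zfp69 and Zfp568, which represses a placental Igf2 transcript, were not called, with log2 fold changes of 0.34, 0.44 and −0.33 and limma adjusted p of 0.0571, 0.0597 and 0.0542. With the correction all 3 were called, Zfp568 at −0.45 (over its alternatives the limma adjusted p ran from 0.00355 to 0.172). Zfp961 and Zfp708 had overlapping groups, and all transcript windows of Zfp708 occur in other genes. Zfp57 itself had a mean of 0.00667 TPM, Zfp92, Zfp30 and Zfp819 were under 0.05 TPM, and Zfp37, in whose coding sequence no KRAB box was found, was listed at 0.

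The most abundant member was the KRAB gene Zfp990, at 152.56, 156.10 and 162.38 TPM with the empty vector and 203.62, 219.60 and 170.78 TPM with the fusion. Its groups did not overlap, but it was not called (log2 fold change 0.33, limma adjusted p = 0.0674, 0.000107 to 0.193 over the alternatives). Zfp445, Zfp330, Zfp106, Zfp207 and Zfp809 followed in mean level. Zfp330, in which no C2H2 pattern was found, was lower with the fusion at 115.40, 113.34 and 100.48 TPM against 124.79, 128.56 and 134.95 TPM, and was also not called (limma adjusted p = 0.0809). Neighbours in this order did not all differ beyond their spread: the ranges of Zfp990 and Zfp445, and those of Zfp330 and Zfp106, overlapped in the fusion libraries but not in the empty vector libraries. Summed over the 290 members, the level was 4691, 4827 and 4903 TPM in the empty vector libraries and 5822, 5890 and 4928 TPM in fusion replicates 1, 2 and 3.

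Falls were fewer and lay mostly in members without a KRAB box. Zfp710 measured 8.33, 6.66 and 8.10 TPM with the empty vector and 2.61, 2.42 and 4.32 TPM with the fusion. Zfp628 measured 3.75, 2.54 and 2.63 TPM with the empty vector and 0.70, 0.75 and 1.5 TPM with the fusion. The groups were separate in both, and fusion replicate 3 was the highest of its group. Their log2 fold changes were −1.10 (SE 0.190, limma adjusted p = 0.0142) for Zfp710 and −1.01 (SE 0.212, limma adjusted p = 0.0231) for Zfp628. With the correction, Zfp710 was still called at −0.87, while Zfp628, whose transcript has a GC content of 63.5%, stood at −0.39 and was not called (limma adjusted p = 0.0653). Zfp213, Zfp362, Zfp768, Zfp646 and Zfp142 fell by 0.79, 0.70, 0.66, 0.47 and 0.40 on the log2 scale, and of these Zfp362, Zfp646 and Zfp142 were also called lower after correction. Fusion replicate 3 was the highest of its group in 9 of the 13 fallers.

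The only fallers in which a KRAB box was found were Zfp777 and Zfp1. Zfp777 measured 19.54, 17.66 and 23.10 TPM with the empty vector and 13.64, 13.12 and 11.98 TPM with the fusion (log2 fold change −0.59, limma adjusted p = 0.0184). Its transcript is rich in GC (59.1%), and after correction it stood at −0.16 with a limma adjusted p of 0.574 (0.00118 to 0.759 over the alternatives). Zfp1 measured 8.30, 7.95 and 9.65 TPM with the empty vector and 6.38, 6.30 and 5.34 TPM with the fusion, a log2 fold change of −0.46, and −0.50 after correction. In both, fusion replicate 3 was the lowest library, unlike in most fallers.

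Of 28 genes listed as DNA-binding factors without a KRAB box or as partners of chromatin enzymes, 20 were members, of which 1 rose (5.00%) and 2 fell, against 10.2% and 10.04% of all tested genes, with a median of −0.09. The riser was Zfp143. Zfp592, known in human cells from a complex with ZMYND8, fell from 10.26, 11.24 and 12.06 TPM to 7.91, 8.05 and 9.09 TPM, and Zfp384, a nuclear matrix factor, from 32.03, 32.76 and 30.80 TPM to 25.50, 25.68 and 23.20 TPM. The log2 fold changes were −0.38 for Zfp592 (limma adjusted p = 0.0401, 0.000141 to 0.139 over the alternatives) and −0.35 for Zfp384 (0.0258, 0.000158 to 0.116). After correction Zfp592 was called at −0.33 and Zfp384, at −0.23, was not. The remaining 17 were not called, among them Zfp281, a factor of pluripotent cells (log2 fold change 0.19), Zfp335, needed for T cell maturation (−0.41), Zfp217 (−0.05), Zfp148 (0.13) and Zfp91 (0.06). Zfp410, an activator of the chromatin remodeller gene Chd4, was not called (−0.13), nor was Chd4 (−0.13). Zfp521, Zfp423, Zfp462, Zfp532, Zfp42 and Zfp827 were listed at a mean of 0.

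Of 12 genes listed for roles in RNA, ribosomes, SUMO or the spindle, all were members, of which 2 rose and 2 fell (median 0.09), against 10.2% and 10.04% of all tested genes. Zfp598, the ubiquitin ligase that senses collided ribosomes in human cells, measured 38.34, 33.16 and 30.28 TPM with the empty vector and 16.80, 13.87 and 26.14 TPM with the fusion. Zfp207, the spindle and kinetochore protein also called BuGZ, measured 105.61, 102.05 and 103.75 TPM and then 87.29, 88.33 and 76.99 TPM. In both genes every fusion library was lower. The log2 fold change of Zfp598 was −0.85 (SE 0.219, limma adjusted p = 0.0384, 5.21e-05 to 0.128 over the alternatives), and −0.40 after correction. That of Zfp207 was −0.30 (limma adjusted p = 0.0404, 0.000320 to 0.130), and −0.46 after correction. With a GC content of 41.7%, Zfp207 was the faller with the lowest GC content.

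Zfp106, an RNA-binding protein, rose from 100.90, 104.21 and 101.57 TPM to 140.78, 133.26 and 114.40 TPM, and Zfp451, a SUMO ligase in human cells, from 26.17, 26.42 and 26.21 TPM to 39.08, 38.87 and 31.36 TPM. The log2 fold changes were 0.33 for Zfp106 (limma adjusted p = 0.0467, 4.80e-05 to 0.156 over the alternatives) and 0.45 for Zfp451 (0.0272, 2.49e-05 to 0.105). The other 8 were not called. They include Zfp622 and Zfp593, whose yeast homologues act in maturation of the large ribosomal subunit (0.10 and −0.44), the splicing-linked Zfp326 and Zfp830 (0.09 and −0.08), the double-stranded RNA binder Zfp346 (−0.08), Zfp318 (0.23), and Zfp638, known in human cells for silencing unintegrated retroviral DNA with the HUSH complex (0.09). Zfp706 had log2 fold change 0.60 but overlapping groups, with 88.88 and 90.29 TPM in fusion replicates 1 and 2 and 45.66 TPM in replicate 3, against 42.85 to 51.71 TPM with the empty vector.

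KRAB members lie in clusters of related genes. Taking members within 500 kb of the next on the GRCm38 annotation as neighbours, 116 members fell into 10 groups of at least 6. The medians of the 4 largest-median groups were 0.32 on chromosome 4 (18 members from Zfp990 to Zfp933, all KRAB), 0.31 and 0.27 on chromosome 17 (11 members from Zfp871 to Zfp414 and 19 from Zfp160 to Zfp213) and 0.25 on chromosome 13 (19 members from Zfp640 to Zfp273, of which 18 were above 0). After correction these 4 medians were 0.13, 0.14, 0.08 and 0.07. The 5 groups on chromosome 7 and the 1 on chromosome 6 had medians between −0.10 and 0.15 and transcripts richer in GC, with median GC content from 46.2% to 61.2%, against 36.1% to 41.5% in the former 4. In the chromosome 4 group 14 of 18 members share at least 10% of their transcript windows with other genes, inside or outside the group. Their values may therefore not be independent, which was not tested. Outside these groups, the 21 members on chromosome 2 had a median of 0.41, and 0.23 after correction, with a median GC content of 40.6%. Windows shared by these 21 with other genes were not counted as a set, so their values may not be independent either. Of these 21, 7 rose and 0 fell, where 10.2% of all tested genes rose and 10.04% fell.

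**Figure D5:**
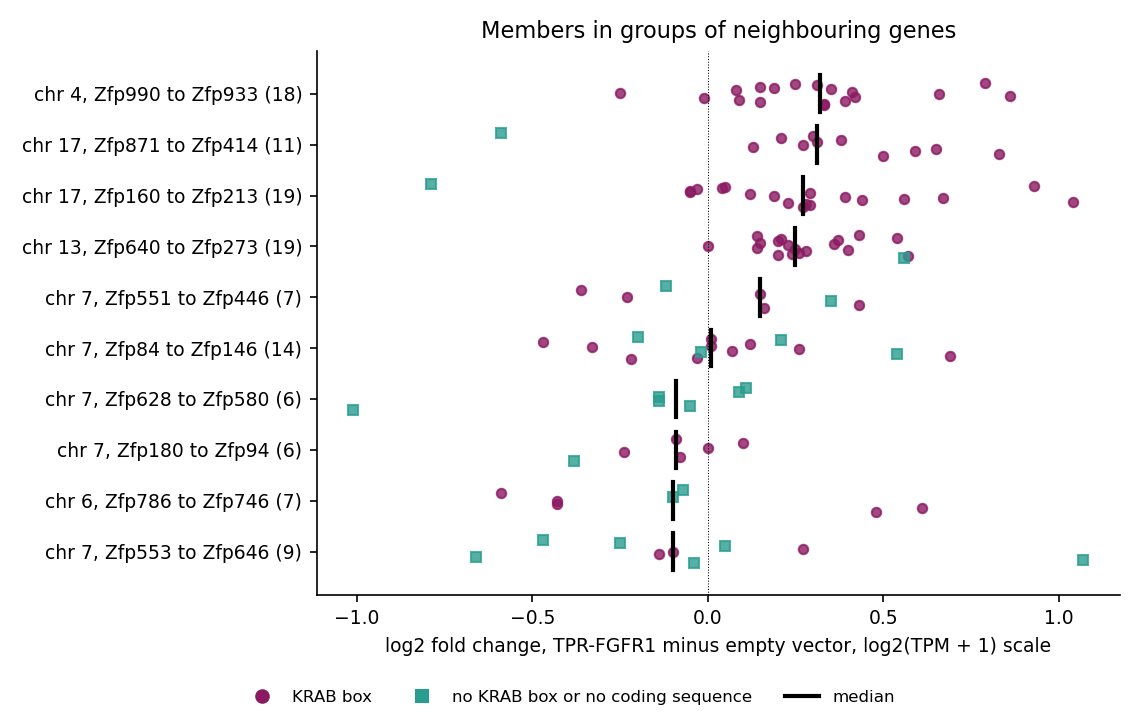
Log2 fold change on the log2(TPM + 1) scale (x axis) of each member in the 10 groups of neighbouring genes (y axis, with chromosome, first and last gene and number of members), with black bars for group medians. The groups on chromosomes 4, 17 and 13 have medians between 0.25 and 0.32, and those on chromosomes 6 and 7 between −0.10 and 0.15.

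Among KRAB members the counts by number of fingers were 11 risers and 0 fallers of 47 with at least 15 fingers, 13 and 0 of 83 with 10 to 14, 6 and 2 of 39 with 4 to 9, and 1 and 0 of 6 with fewer, against 10.2% rising and 10.04% falling over all tested genes. The medians were 0.28, 0.25, 0.17 and 0.19, and the median GC content of the same sets was 39.2%, 41.2%, 43.1% and 39.3%. Near-identical copies touched 58 members that share at least 10% of their transcript windows with other genes, of which 10 were called. Among called members Zfp993, Zfp960 and Zfp969 share over 50%. All windows of Zfp969 occur in other genes, so its reads may have been split among copies.

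Related genes outside the Zfp names were set beside them. Of 208 other tested genes with at least 2 C2H2 fingers, 30 rose (14.4%) and 14 fell (6.73%), against 10.2% and 10.04% of all tested genes, with a median of 0.09. The 70 of these with a KRAB box counted 14 risers and 1 faller with a median of 0.29, and 0.11 after correction. Genes named Zbtb, Zkscan or Zscan, 50 in number, counted 3 risers and 4 fallers with a median of −0.03. No test of a difference between these families was made.

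The partners of KRAB proteins moved in both directions. Of 34 tested genes of the TRIM28 complex and related silencing machinery, 7 rose (20.6%) and 6 fell (17.6%), against 10.2% and 10.04% of all tested genes, and the median was 0.00. Trim28, the corepressor that KRAB boxes bind, measured 143.80, 164.99 and 170.48 TPM with the empty vector and 99.33, 93.51 and 107.28 TPM with the fusion. Its groups were well apart, with a log2 fold change of −0.67 (limma adjusted p = 0.00950). Trim28 has a GC content of 59.6%, and after correction it stood at −0.21 with a limma adjusted p of 0.244 (2.22e-05 to 0.491 over the alternatives). Setdb1 rose from 26.19, 29.07 and 28.87 TPM to 36.78, 35.79 and 32.97 TPM (log2 fold change 0.32, and 0.24 after correction). Cbx5, which encodes HP1 alpha, rose by 0.71 on the log2 scale, Suv39h2 by 0.53, Atrx by 0.50, Trim24 by 0.46, Ehmt1 by 0.30 and Suv39h1 by 0.29. Uhrf1 and the NuRD genes Chd3, Mbd3, Gatad2a and Mta3 fell by 0.36, 0.70, 1.06, 0.83 and 0.65. The NuRD genes of the list that were not called lay on both sides. Mbd2, Rbbp4, Hdac2, Gatad2b and Hdac1 stood at 0.34, 0.29, 0.17, 0.12 and 0.05. Mta1, Chd4, Mta2 and Rbbp7 stood at −0.44, −0.13, −0.12 and −0.07. With the correction Mbd2 was called higher, at 0.65 (limma adjusted p = 0.0414). After correction Uhrf1 and Mbd3 were not called, at −0.19 and −0.48 (limma adjusted p of 0.0646 and 0.0527, over the alternatives 4.36e-05 to 0.133 and 2.10e-05 to 0.102).

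Some members differed most between libraries of one group. Zfp771 was at 19.72 TPM in fusion replicate 1 but between 0.34 and 1.12 TPM in the other 5 libraries. Zfp236 was at 56.36 TPM in fusion replicate 3 and between 9.27 and 10.04 TPM in the others. Zfp965 measured 0.86, 5.66 and 2.60 TPM with the empty vector and 8.53, 7.39 and 1.22 TPM with the fusion. For this gene 53.8% of the transcript windows occur in other genes. These 3 had the largest spread among fusion libraries on the log2 scale, and none was called. Their log2 fold changes of 1.07, 0.80 and 0.66 rest on 1 or 2 libraries.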

How the data were processed

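The 6 libraries (3 per group) were made with Illumina's stranded mRNA preparation, starting from 1 µg of RNA each, per the labels' protocols. The authors deposited TPM values for 57010 gene IDs, and the submitters' processing notes name build GRCm39 and the tools HISAT2, StringTie and fastp. Tool versions, the annotation release and whether strand was used are not stated there. Symbols came from GENCODE M21 (52029 IDs matched by name), which is on GRCm38, so no gene coordinates are given from it, and 0 columns of other samples were present. Of the tested genes, 12541 had a transcript GC content.

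The analysis took log2(TPM + 1) of the 12862 genes averaging 1 TPM or more, with limma 3.58.1 in R 4.3.3 (group as the only term, eBayes with trend, Benjamini-Hochberg adjustment, called at an adjusted p under 0.05). With 3 against 3 libraries an exact permutation test cannot go below 0.1, so it was not used. On simulated data with 12862 genes, 29.9% of genes changed 1.5-fold and 79.1% of those changed 2-fold were recovered when the steps were tested. The simulated noise was drawn independently for each gene and library. It held no deviation shared across genes like that of TPR-FGFR1 replicate 3, so these rates need not hold for the real libraries. The correction removed from each library a spline trend (4 degrees of freedom) over GC content and length of the longest transcript. Other alternatives were pseudocounts of 0.1 and 5, other filters, scalings and variance models, library weights, the replicate number as a block, protein-coding genes alone, and leaving out each library, with the filter taken over the libraries kept.

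No protein table was used. C2H2 fingers (C, 2 to 4 residues, C, 12 residues, H, 3 to 5 residues, H) and KRAB boxes (a position weight matrix, score of at least 25) were found in translated GENCODE M21 coding sequences. Copies were measured as the share of the 75-base windows of a gene's longest transcript found in the longest transcripts of other genes. The members and lists were chosen with earlier results of these data known, and the patterns, windows, neighbour distance and promoter motifs after values were seen. Named members are the 10 largest rises and falls among called members, the 6 most abundant, those nearest to 1 TPM, the 3 with the largest fusion spread and the measured genes of 3 lists by role. Called corepressor genes are named as well. The uncalled NuRD genes, Zfp967 and members with a promoter match or shared windows were named after their values were seen.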

Additional observations from a re-analysis of the deposited data

How the results depend on the processing

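Groups of 3 libraries, unknown depth and a fusion library that stands apart limit these counts, and the cause of the shifts below was not tested. Against 2600 genes called in all, 1146 were called with no filter, 9281 with library weights (whose estimation stopped before convergence), 3986 with the GC and length correction, 4902 with that correction without TPR-FGFR1 replicate 3, and 220 to 6396 without 1 library. Members called higher numbered 39, and 10 with no filter, 157 with weights and 2 to 126 without 1 library. Members called lower numbered 13, and 4, 50, 27 and 32 under the first 4 of those settings in turn and 0 to 33 without 1 library. KRAB members called higher numbered 31, and 9 with no filter, 118 with weights and 1 to 97 without 1 library. KRAB members called lower numbered 2, and 1 with no filter or quantile normalization, 5 with median-ratio scaling, 4 with protein-coding genes alone, 13 with weights, 10 with the correction, 12 with it and without replicate 3, and 0 to 6 without 1 library. Members without a KRAB box called higher numbered 7, and 1, 37, 12 and 15 under the same 4 settings, 12 with quantile normalization and 1 to 28 without 1 library. Those called lower numbered 11, and 3, 37, 17, 20 and 0 to 27, and their median was 0.00 with weights, against −0.05. Corepressor genes called numbered 13, and 6 with no filter, 29 with weights and 0 to 24 without 1 library. Zbtb, Zkscan and Zscan genes called numbered 7, and 3, 32, 14, 15 and 1 to 21, and other C2H2 genes 44, and 15, 147, 74, 80 and 3 to 114. With the correction and without TPR-FGFR1 replicate 3, Zfp777 stood at 0.05 and Zfp638 at −0.18, reversing their directions. Medians without 1 library ran from 0.09 to 0.23 for all members, 0.18 to 0.36 for KRAB members and −0.08 to −0.02 for the others.

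No pairing by replicate number was seen: deviations of same-numbered libraries correlated at −0.193, −0.075 and −0.153, and 0 of 6 libraries matched best with its own number. With 3 libraries per group and fusion replicate 3 apart from its group, this check cannot exclude a pairing. With the replicate number as a block, 764 genes were called in all, 8 members higher and 1 lower, KRAB members 7 and 0, members without the box 1 and 1, corepressor genes 4, Zbtb, Zkscan and Zscan genes 2 and other C2H2 genes 12. With the block and the correction together, 20 KRAB members were called higher and 6 lower.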
